A study of Rattus norvegicus with 24 samples.

Results

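The let-7 major arms are the 5p strands of the let-7 microRNA family, which are the strands that accumulate from let-7 hairpins. The members were taken by name from the table of miRNA counts: rno-let-7a-5p, rno-let-7b-5p, rno-let-7c-5p, rno-let-7d-5p, rno-let-7e-5p, rno-let-7f-5p, rno-let-7i-5p and rno-miR-98-5p. They were 8 of the 1098 miRNAs in the table, of which 703 were known rat miRNAs and 395 were predicted ones, and all 8 were counted in every library. Rows named rno-miR-3596, whose counts repeat those of members, were not counted among them.

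Small RNA was sequenced from the paraventricular nucleus of the hypothalamus (PVN), which drives the hormonal stress axis, and from the central amygdala (CEA), which relays stress signals, to examine electroacupuncture after surgical trauma. Male Sprague–Dawley rats, 7 weeks old when bought, were normal controls (NC), underwent partial hepatectomy with removal of about 20% of the left liver lobe (HT), or underwent the same surgery with electroacupuncture (HT + EA) or sham electroacupuncture (HT + SEA). Current alternating between 2 and 15 Hz was given for 30 min through needles at the Zusanli and Sanyinjiao points in a session on the day before surgery and another right after it. SEA rats had needles without current, all rats were restrained for the same time, and the brains were collected 24 h after the final needling. There were 24 libraries, 3 for each nucleus under each treatment, while the study's methods name 12 rats in 4 groups and state that the brain samples were taken from different animals of one batch. How many animals stand behind a library, and whether PVN and CEA libraries share animals, is not given. p-values therefore measure the spread between these libraries, and those between the nuclei treat them as separate.

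The let-7 miRNAs repress messenger RNAs that pair with the seed, bases 2 to 8 counted from the 5′ end, so members with one seed share most predicted targets. The family rises as cells leave the precursor state and is abundant in mature neurons, and the LIN28 proteins hold it low in early development by blocking the processing of its hairpins. Its hairpins lie in several clusters, some transcribed together with miR-99, miR-100 and miR-125 hairpins, so members need not be made in fixed proportions.

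The mature sequences are shown because the members differ by so few bases that their counts depend on reads being assigned correctly. They were read from RefSeq (assembly GRCr8), where all 8 members were found, and each is 22 bases long. The seed is in capitals.
rno-let-7a-5p: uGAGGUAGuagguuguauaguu
rno-let-7b-5p: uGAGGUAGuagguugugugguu
rno-let-7c-5p: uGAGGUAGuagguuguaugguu
rno-let-7d-5p: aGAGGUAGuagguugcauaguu
rno-let-7e-5p: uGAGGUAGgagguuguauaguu
rno-let-7f-5p: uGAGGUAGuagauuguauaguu
rno-let-7i-5p: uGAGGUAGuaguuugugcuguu
rno-miR-98-5p: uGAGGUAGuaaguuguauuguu
All 8 had the same seed, GAGGUAG. Among the 693 mature rat miRNAs of the sequence table, 9 had it, and the ninth, rno-let-7g-5p, is not one of the members described here. Relative to let-7a-5p, with positions counted from 1 at the 5′ end, let-7c-5p differed by A19G, let-7e-5p by U9G and let-7f-5p by G12A. The differences were A17G and A19G for let-7b-5p, U1A and U16C for let-7d-5p, and G11A and A19U for miR-98-5p. The most distant member was let-7i-5p, with G12U, A17G, U18C and A19U.

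The 8 members were found at 11 positions of GRCr8, since let-7a-5p, let-7c-5p and let-7f-5p each have 2 hairpins. The sequence of let-7e-5p lies at chr1:67350243-67350264, in a cluster with miR-99b and miR-125a. That of let-7c-5p lies at chr11:29688127-29688148 beside miR-99a and at chr7:118683636-118683657, next to let-7b-5p at chr7:118684044-118684065. That of let-7a-5p lies at chr8:50805219-50805240, between miR-100 and miR-125b-1, and at chr17:16320145-16320166, in a cluster with let-7f-5p at chr17:16320508-16320529 and let-7d-5p at chr17:16322273-16322294. The other let-7f-5p hairpin, at chrX:24460052-24460073, neighbours miR-98-5p at chrX:24460663-24460684, and let-7i-5p lies at chr7:60527935-60527956. The last of these is on the minus strand and the others are on the plus strand.

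The counts of 4 members are hard to set apart from another row, because rat miRNAs called miR-3596 are annotated on the opposite strand of let-7 hairpins. The 4 mature sequences are shown because each is the exact reverse complement of all or most of a member.
rno-miR-3596a: aacuauacaaccuacuaccuca
rno-miR-3596b: aacuaugcaaccuacuaccu
rno-miR-3596c: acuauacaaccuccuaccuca
rno-miR-3596d: cuauacaaucuacuaccuca
The count of miR-3596b equalled that of let-7d-5p in 23 of 24 libraries. Those of miR-3596a, miR-3596c and miR-3596d were 99.9%, 99.6% and 97.7% of the counts of let-7a-5p, let-7e-5p and let-7f-5p in the median library. Reads from the 2 strands therefore cannot be told apart in these counts, and the same reads stand in both rows. How reads matching several miRNAs were assigned is not given in the sources used here, so values of members that differ by a single base are uncertain to that extent.

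Between 6584345 and 14828269 counts per PVN library and between 9463321 and 14913564 per CEA library fell on miRNAs, and the least counted member, miR-98-5p, had at least 1415 counts in every library. Brain miRNAs (miR-9a-5p, miR-124-3p and miR-128-3p) summed to between 102600 and 116300 CPM (counts per 1000000 miRNA counts of the library) in the PVN and between 137300 and 161700 CPM in the CEA, and none was at 0. miR-7a-5p and miR-7b, enriched in neuroendocrine neurons, summed to between 134800 and 170500 CPM in the PVN and between 24800 and 54280 CPM in the CEA. The libraries thus held brain miRNAs throughout, and the 2 nuclei stood apart on the sums of both lists. The brain sum was mostly miR-9a-5p, and miR-124-3p overlapped, with 963.7 to 1674 CPM in the PVN and 914.2 to 2021 CPM in the CEA. The normalization factor of CEA HT replicate 1 was 0.822, apart from the others, which ran from 0.976 to 1.06. Without it, 7 members were called between the nuclei in place of 6, and still none in a CEA treatment comparison.

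Together the 8 members took 6.34% ± 0.518 (SD, n = 24 libraries) of all miRNA counts, from 5.77% in PVN NC replicate 3 to 7.92% in CEA HT + SEA replicate 3. The share was 6.19% ± 0.288 (SD, n = 12) in the PVN and 6.49% ± 0.657 (SD, n = 12) in the CEA, and the 2 ranges overlapped. In the PVN, the 4 treatment means lay between 6.08% and 6.25%, with an SD of 0.285 to 0.351 in each group of 3. In the CEA they lay between 6.06% (HT) and 6.86% (HT + SEA), with an SD of 0.390 to 0.949. The treatment groups overlapped within each nucleus. With let-7g-5p added, the share was 8.46% over the 24 libraries.

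**Figure D1:**
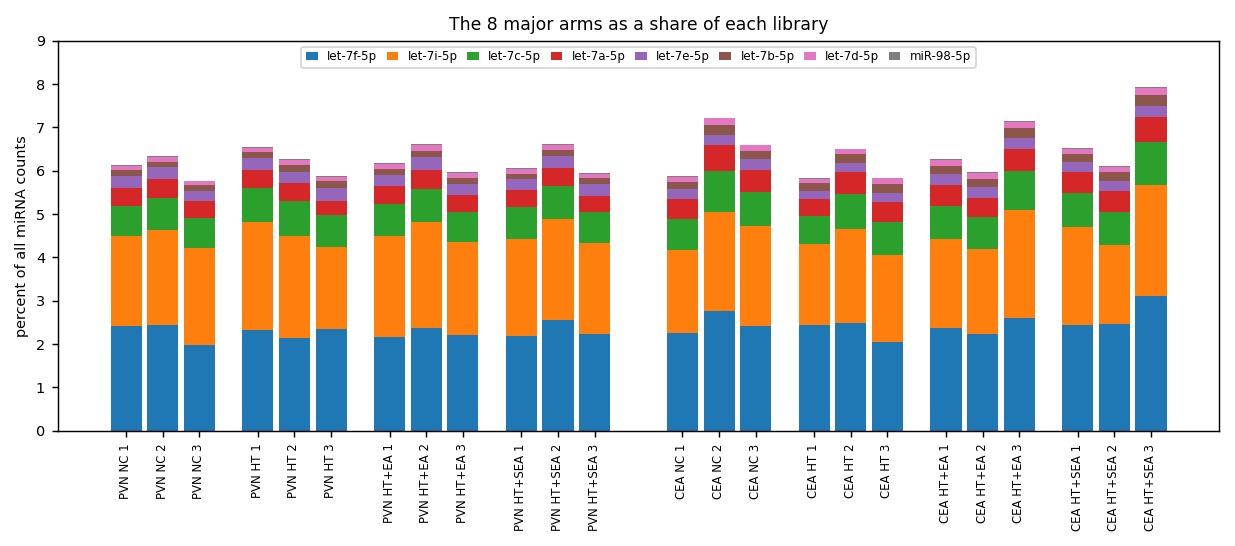
Share of all miRNA counts taken by each of the 8 major arms (stacked bars, percent of counts, y axis) in each of the 24 libraries (x axis). let-7f-5p and let-7i-5p make up most of every bar, and the bars run from 5.77% to 7.92% with no step between the nuclei or the treatments.

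The family was led by let-7f-5p with 23760 CPM on average over the 24 libraries and let-7i-5p with 21890 CPM. These were the seventh and eleventh most counted miRNAs of the table, with miR-3596d, whose counts nearly repeat those of let-7f-5p, ranked between them. let-7f-5p was above let-7i-5p in 18 of 24 libraries. Their ratio ran from 0.897 to 1.24 in the PVN, where the order of these 2 was not fixed. In the CEA it ran from 1.01 to 1.34, so let-7f-5p was above in every CEA library. let-7c-5p followed with 7706 CPM, let-7a-5p with 4455 CPM and let-7e-5p with 2508 CPM. let-7b-5p had 1704 CPM, below let-7e-5p in 23 of 24 libraries, let-7d-5p had 1166 CPM and miR-98-5p had 209.9 CPM. Each of the other neighbours in this order was ordered the same way in all 24 libraries. All members have the same length, so CPM compares them per length, but adapter ligation in small RNA libraries favours some ends over others, and levels of different miRNAs are less certain than the level of 1 miRNA across libraries.

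**Figure D2:**
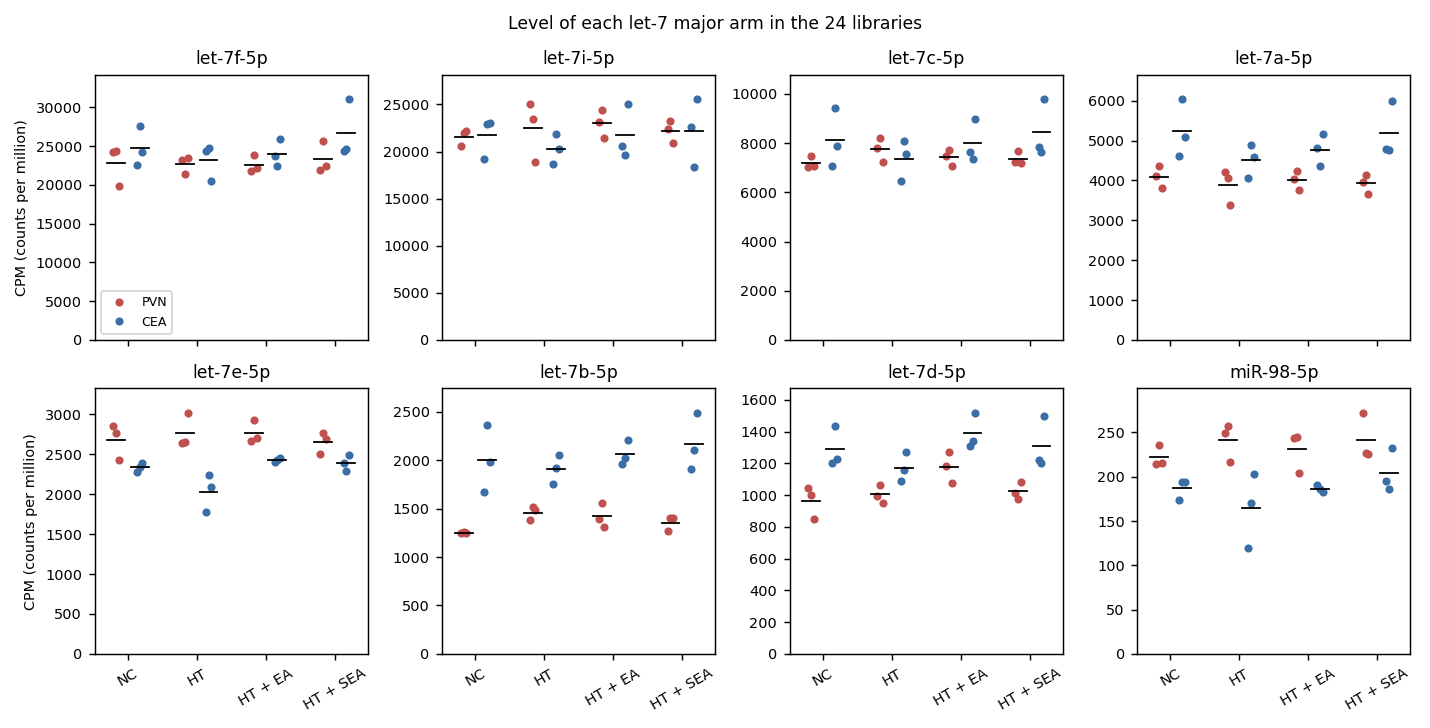
Level of each major arm (y axis, CPM, linear and starting at 0) by treatment (x axis), with 1 point per library, red for the PVN and blue for the CEA, and a black line at the mean of 3 libraries. let-7b-5p separates the nuclei in every treatment, from 1249 to 1560 CPM in the PVN and from 1667 to 2492 CPM in the CEA, while the points of let-7i-5p mix.

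The nuclei were compared in 1 fit of the 24 libraries that also held a term for treatment, using the quasi-likelihood test of edgeR with p adjusted by Benjamini-Hochberg over all 1098 miRNAs, and a miRNA was called at an adjusted p under 0.05. The family's share overlapped between the nuclei, while its members differed in both directions. let-7b-5p, let-7d-5p, let-7a-5p and let-7f-5p were lower in the PVN than in the CEA, and let-7e-5p and miR-98-5p were higher. These were 6 of 8 members, where 39.9% of all miRNAs were called, 20.1% higher and 19.8% lower in the PVN. All members averaged over 200 CPM, and among the 218 miRNAs with a mean of at least 100 CPM 163 were called (74.8%), so the count of calls was near that of miRNAs at such levels. With the replicate number as a block within each treatment, 6 members were called as well. The median log2 fold change was -0.15 over the 8 members and 0.03 over all miRNAs. In tissue counts, fewer cells that carry a miRNA and less of it per cell cannot be told apart. Besides the brain and neuroendocrine markers given above, 3 lists of cell type markers did not overlap between the nuclei in their sums. The 3 oligodendrocyte markers (miR-219a-5p, miR-219a-2-3p and miR-338-3p) summed to between 1795 and 3236 CPM in the PVN and between 3904 and 7916 CPM in the CEA. Most of this was miR-219a-2-3p (1595 to 2917 against 3350 to 6912 CPM), while miR-219a-5p and miR-338-3p overlapped. The 4 markers of ciliated and choroid cells summed to between 2970 and 4462 CPM in the PVN and between 597 and 1910 CPM in the CEA. That gap lay mostly in miR-34c-5p (2251 to 3895 against 187 to 1113 CPM), while miR-204-5p and miR-449a-5p overlapped. The 2 endothelial markers summed to between 17490 and 21910 CPM and between 23080 and 26670 CPM, respectively, nearly all of it miR-126a-3p. No marker of these lists was at 0 in any library, and their part in the let-7 differences was not tested.

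let-7b-5p showed the widest difference of the 8. In the PVN it ran from 1249 CPM through a median of 1386 to 1560 CPM, and in the CEA from 1667 through 2003 to 2492 CPM, so no PVN library reached a CEA library. The same lack of overlap was found for 11.6% of all miRNAs. The log2 fold change was -0.62 (SE 0.062, adjusted p = 2.0e-10 by edgeR's quasi-likelihood test), or 0.652 times the CEA level, with a 95% interval from -0.74 to -0.49. By group, the PVN libraries held 1249, 1254 and 1253 CPM in NC, 1381, 1518 and 1481 in HT, 1390, 1560 and 1307 in HT + EA, and 1268, 1401 and 1401 in HT + SEA. The CEA libraries held 1667, 2360 and 1979 CPM in NC, 1754, 1923 and 2051 in HT, 1963, 2028 and 2206 in HT + EA, and 1907, 2110 and 2492 in HT + SEA. The gap was thus present in each treatment, and the 3 PVN NC libraries lay within 5 CPM of one another.

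let-7d-5p ran from 851.0 CPM through a median of 1028 to 1268 CPM in the PVN and from 1089 through 1251 to 1519 CPM in the CEA. The ranges overlapped, and the log2 fold change was -0.36 (SE 0.061, adjusted p = 7.2e-06 by edgeR). let-7a-5p, which has the sequence of the let-7 of C. elegans, ran from 3384 through 4045 to 4357 CPM in the PVN and from 4058 through 4793 to 6051 CPM in the CEA. Its log2 fold change was -0.35 (SE 0.063, adjusted p = 1.5e-05 by edgeR). These are about the same difference in members that share a cluster on chromosome 17, although let-7a-5p has a hairpin elsewhere too.

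let-7f-5p, the third member with a hairpin in that cluster, ran from 19910 through 22790 to 25630 CPM in the PVN and from 20430 through 24390 to 31110 CPM in the CEA. Its log2 fold change was -0.16 (SE 0.063, adjusted p = 0.0465 by edgeR), close to the threshold. The call was lost with library totals in place of TMM scaling (log2 fold change -0.11, adjusted p = 0.141), with a robust estimate of the spread (adjusted p = 0.0535) and when the replicate block was added (log2 fold change -0.16, adjusted p = 0.0508). It was also lost without PVN HT + EA replicate 3 (-0.16), PVN HT + SEA replicate 3 (-0.14), CEA NC replicate 2 (-0.14) or CEA HT + SEA replicate 3 (-0.13), and without PVN HT + EA replicate 2 the value was -0.24. let-7c-5p had a difference of like size that missed the threshold, with a log2 fold change of -0.15 (95% interval -0.27 to -0.02, adjusted p = 0.0511 by edgeR). It ran from 7041 to 8215 CPM in the PVN and from 6456 to 9804 CPM in the CEA, and the CEA range took in the whole PVN range. DESeq2 called it (adjusted p = 0.0059), and so did edgeR without CEA HT replicate 1 (-0.19, adjusted p = 0.0076), but with library totals the value was -0.10 (adjusted p = 0.204). With single libraries left out it ran from -0.22 without PVN HT + EA replicate 2 to -0.11 without CEA HT + SEA replicate 3.

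In the other direction, let-7e-5p ran from 2423 through a median of 2693 to 3023 CPM in the PVN and from 1772 through 2363 to 2497 CPM in the CEA. The log2 fold change was 0.20 (SE 0.051, adjusted p = 0.0014 by edgeR). Only PVN NC replicate 3, at 2423 CPM, lay within the CEA range. The call was lost without PVN NC replicate 1 (log2 fold change 0.12, adjusted p = 0.0673) and without PVN HT + EA replicate 2 (0.12, adjusted p = 0.0736), and the value without CEA HT replicate 1 was 0.16 (adjusted p = 0.0111). miR-98-5p keeps an older name and lies on the X chromosome beside a hairpin of let-7f-5p. It ran from 204.5 through 231.3 to 272.4 CPM in the PVN and from 119.1 through 187.9 to 232.4 CPM in the CEA. The log2 fold change was 0.30 (SE 0.069, adjusted p = 0.00059 by edgeR), and 0.22 (adjusted p = 0.0031) without CEA HT replicate 1, which held the lowest value.

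let-7i-5p was the member with the smallest difference, with a log2 fold change of 0.01 and a 95% interval from -0.12 to 0.14. It ran from 18930 through 22310 to 25040 CPM in the PVN and from 18360 through 21230 to 25610 CPM in the CEA. The sign of so small a value changed with the processing. let-7g-5p, the seed sharer outside the members, ran from 14160 to 23690 CPM in the PVN and from 15200 to 26610 CPM in the CEA, and its count was between 74.8% and 106.7% of that of let-7i-5p in the same library.

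**Figure D3:**
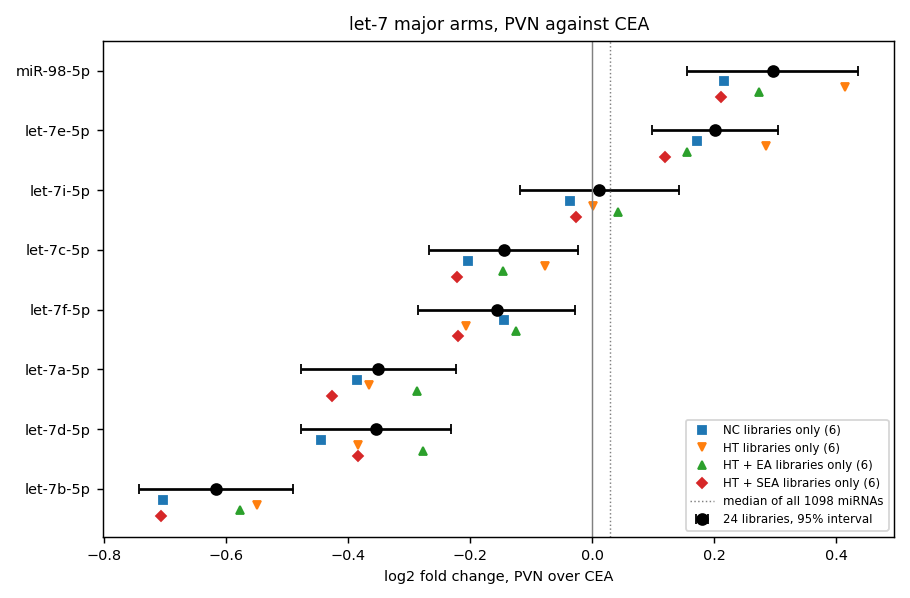
log2 fold change of each major arm in the PVN over the CEA (x axis), with the fit over 24 libraries as black points with 95% intervals and the fits within NC, HT, HT + EA and HT + SEA (6 libraries each) as coloured symbols. The dotted line marks the median of all miRNAs at 0.03, and the values run from -0.62 for let-7b-5p to 0.30 for miR-98-5p.

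Within single treatments, with 3 PVN and 3 CEA libraries, let-7b-5p was called in all 4, with log2 fold changes from -0.71 in HT + SEA to -0.55 in HT (adjusted p from 1.6e-05 to 0.022 by edgeR). let-7a-5p was called in 3 of 4, all but HT, and let-7d-5p in 2 of 4, NC and HT + SEA. The counts of members called were 3 of 8 in NC, where 25.3% of all miRNAs were called, 1 in HT (20.7%), 2 in HT + EA (26.3%) and 3 in HT + SEA (23.9%). The libraries of the nuclei did not overlap for 5 members in NC (34.6% of all miRNAs), 4 in HT (31.1%), 5 in HT + EA (35.8%) and 4 in HT + SEA (34.3%). let-7e-5p did not overlap in any of the 4 treatments but was called in none of them, with log2 fold changes from 0.12 to 0.28. For let-7a-5p, let-7b-5p, let-7c-5p, let-7d-5p and let-7f-5p the value was negative in all 4 treatments, and for let-7e-5p and miR-98-5p it was positive in all 4, after TMM scaling. On unscaled mean CPM, let-7c-5p in HT turned from -0.08 to 0.08, and let-7i-5p in HT + SEA from -0.03 to a positive value near 0, while the signs of the other members held in every treatment.

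The make-up of the family can also be read within each library, as the share of the 8 members' counts taken by each, which needs no scaling between libraries. let-7b-5p made up 2.22% ± 0.166 (SD, n = 12) in the PVN and 3.14% ± 0.221 in the CEA, and let-7a-5p 6.42% ± 0.284 and 7.59% ± 0.368. let-7e-5p made up 4.39% ± 0.299 in the PVN and 3.56% ± 0.311 in the CEA. let-7f-5p and let-7i-5p together made up most of the family in both. Of the 28 ratios between members, 12 (42.9%) did not overlap between the nuclei, beside 33.5% of the 23653 ratios among all 218 miRNAs with a mean of at least 100 CPM. let-7b-5p over miR-98-5p ran from 4.66 to 6.85 in PVN libraries and from 9.57 to 14.7 in CEA libraries. let-7b-5p over let-7e-5p ran from 0.437 to 0.573 and from 0.730 to 1.01, and let-7a-5p over let-7e-5p ran from 1.12 to 1.60 and from 1.80 to 2.59. let-7a-5p over let-7d-5p ran from 3.35 to 4.47 in PVN libraries and from 3.26 to 4.24 in CEA libraries, so that ratio did not set the nuclei apart. A ratio shows unequal levels only and does not tell which member differed.

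The other arms of the same hairpins, passenger strands that are mostly degraded, were far scarcer. Of 11 listed, 10 were in the table. let-7d gave the most of its 3p arm, 9.0% of both arms in the median PVN library and 9.3% in the median CEA library, and let-7f the least, 0.026% and 0.033%. Of these 10, 4 were called between the nuclei, a share near that of all miRNAs (39.9%), and all 4 were lower in the PVN. The median log2 fold change of the 10 was -0.24. let-7b-3p ran from 4.96 to 9.56 CPM in the PVN and from 7.39 to 14.9 CPM in the CEA (log2 fold change -0.83, adjusted p = 2.1e-07 by edgeR). let-7a-1-3p, from the hairpin on chromosome 17, ran from 33.2 to 47.1 CPM and from 49.7 to 83.7 CPM without overlap (-0.69, adjusted p = 8.6e-08 by edgeR). let-7d-3p (-0.42, adjusted p = 3.9e-06 by edgeR) and let-7f-1-3p (-0.56, adjusted p = 0.0022 by edgeR) come from the same cluster. For let-7b, let-7a and let-7d, then, both arms were lower in the PVN. The same held for let-7f through let-7f-1-3p, although the call of let-7f-5p was close to the threshold and let-7f-2-3p was not called. The ratio of 5p to 3p counts did not overlap between the nuclei for let-7a, by a narrow gap. It ran from 86.4 to 117.5 in PVN libraries and from 69.8 to 85.6 in CEA libraries. The ratios of the other 7 forms overlapped. Among miRNAs with a mean of at least 100 CPM, 33.5% of ratios did not overlap, and arm ratios of other miRNAs were not tested. The let-7a-5p count pools its hairpins, while nearly all of the let-7a 3p count was let-7a-1-3p. Among those not called, let-7e-3p had a log2 fold change of 0.19, let-7i-3p of -0.20, let-7c-1-3p of -0.10 and let-7f-2-3p of -0.21.

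The miRNAs transcribed with let-7 hairpins, miR-99, miR-100 and miR-125, did not follow their let-7 neighbours in one direction. All 11 listed were in the table and 8 were called, 5 higher and 3 lower in the PVN, with a median log2 fold change of 0.17. Over all miRNAs 39.9% were called, and 74.8% of those with at least 100 CPM. In the let-7c-1 cluster, miR-99a-5p (0.19, adjusted p = 0.0168) and miR-125b-2-3p (0.54, adjusted p = 8.1e-09) were higher in the PVN by edgeR, while let-7c-5p itself was not called at -0.15. In the let-7a-2 cluster, miR-100-5p (-0.19, adjusted p = 0.0235) and miR-100-3p (-0.54, adjusted p = 0.0075) were lower by edgeR and miR-125b-1-3p (0.31, adjusted p = 0.00038) was higher. miR-125b-5p, made from hairpins in both of these clusters, ran from 7815 to 10140 CPM in the PVN and from 3864 to 7577 CPM in the CEA without overlap (0.42, adjusted p = 1.1e-06 by edgeR). In the let-7e cluster, miR-99b-5p was lower (-0.28, adjusted p = 0.00085) and miR-125a-3p higher (0.49, adjusted p = 5.1e-05) by edgeR. miR-125a-5p had a value of 0.01, miR-99b-3p of 0.17 and miR-99a-3p of 0.10, and none of these was called. Neighbouring hairpins of 1 cluster thus gave called values of opposite sign in the let-7a-2 cluster, miR-100 against miR-125b-1, and in the let-7e cluster, miR-99b-5p against let-7e-5p and miR-125a-3p.

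**Figure D4:**
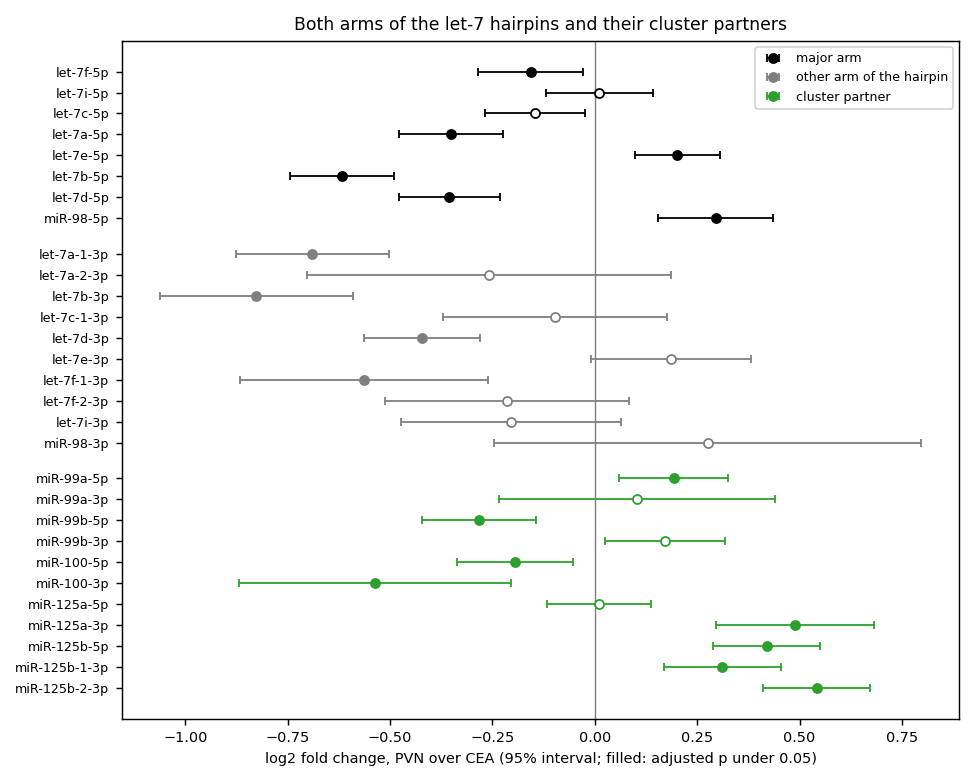
log2 fold change in the PVN over the CEA (x axis, 24 libraries, bars are 95% intervals) for the 8 major arms, the 10 passenger arms in the table and the 11 cluster partners, with filled points for an adjusted p under 0.05. The called passenger arms lie between -0.83 and -0.42, and the called partners lie on both sides of 0, from -0.54 to 0.54.

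Turning to the treatments, each comparison used only its own 6 libraries in edgeR's quasi-likelihood test. In the PVN, the surgery was examined first. After hepatectomy (HT against NC), no member was called, where 3.25% of all miRNAs were. At an unadjusted p under 0.05 the count was 0 of 8 against 10.9% of all miRNAs, and DESeq2 called 0 by either p. The log2 fold changes ran from -0.10 for let-7a-5p to 0.19 for let-7b-5p, with a median of 0.03 beside -0.01 for all miRNAs, and the 95% intervals ran from -0.35 to 0.46. The groups did not overlap for 1 member, let-7b-5p, as for 12.8% of all miRNAs. Its 3 NC libraries lay between 1249 and 1254 CPM and its 3 HT libraries between 1381 and 1518 CPM, for a log2 fold change of 0.19 (SE 0.139, adjusted p = 0.765 by edgeR), and 0.12 without PVN HT replicate 2. NC libraries were shallower than HT libraries in the median (7364616 against 9276805 counts). Of the 26 cell type markers, 8 separated these groups. miR-128-3p ran from 7225 to 9681 CPM in NC and from 11730 to 13780 CPM in HT. miR-338-3p ran from 143.8 to 255.8 and from 261.3 to 451.1 CPM, and miR-206-3p from 25.7 to 91.0 and from 8.51 to 15.7 CPM. The others belong to 3 marker lists whose sums did not overlap either, each mainly through a single marker. The 3 myeloid markers summed to between 95.8 and 183.9 CPM in NC and between 72.1 and 88.3 CPM in HT, where miR-223-3p averaged 64.2 and 1.32 CPM and both miR-142 arms overlapped. The 3 red cell markers summed to between 182.6 and 241.2 CPM in NC and between 154.3 and 166.4 CPM in HT, through miR-451-5p. The 4 ciliated and choroid markers summed to between 3755 and 4462 CPM in NC and between 2970 and 3214 CPM in HT, through miR-34c-5p. The other way went miR-204-5p, from 544.2 to 621.1 CPM in NC and from 646.0 to 724.0 CPM in HT. So did miR-449a-5p, from 1.03 to 1.52 CPM in NC and from 1.54 to 2.96 CPM in HT. The part of these in the let-7b-5p values was not tested.

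With electroacupuncture (HT + EA against HT), 0 of 8 members were called in the PVN by edgeR and by DESeq2, where edgeR called 1.02% of all miRNAs. let-7d-5p had an unadjusted p of 0.032, where 11.4% of all miRNAs had one under 0.05, and DESeq2 gave 0 members under it. It was above the unadjusted threshold in 5 of 9 alternatives and in 2 of 6 fits with a library left out. Its HT libraries held 996.1, 1066 and 949.8 CPM and its HT + EA libraries 1185, 1268 and 1075 CPM. Every HT + EA library was above every HT library, as was so, in either direction, for 15.7% of all miRNAs. The log2 fold change was 0.26 (SE 0.114, 95% interval 0.02 to 0.49, adjusted p = 0.349 by edgeR), and it ran from 0.18 to 0.30 with each library left out in turn. The depths did not overlap either, from 8789556 to 11050725 counts in HT and from 12134529 to 14828269 in HT + EA. Of the 26 cell type markers, 4 separated these groups as well. miR-223-3p ran from 1.02 to 1.54 CPM in HT and from 8.98 to 11.9 CPM in HT + EA, and miR-128-3p from 11730 to 13780 and from 9155 to 9892 CPM. miR-219a-5p ran from 82.5 to 108.0 and from 40.6 to 54.8 CPM, and miR-144-3p from 12.2 to 16.4 and from 6.46 to 7.76 CPM. The part of depth and of these markers in the let-7d-5p values was not tested. The other 7 members lay between -0.04 and 0.07 on the log2 scale. Among the passenger arms, let-7b-3p (0.63, unadjusted p = 0.014), let-7f-2-3p (-0.73, unadjusted p = 0.0082) and miR-98-3p (-0.92, unadjusted p = 0.0284) were under the unadjusted threshold in edgeR's fit of these 6 libraries across all miRNAs, all at under 10 CPM in every PVN library, and none was called. let-7d-3p had 105.2 CPM ± 9.45 (SD, n = 3) in HT and 116.4 CPM ± 9.86 (SD, n = 3) in HT + EA, with overlapping libraries.

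With sham electroacupuncture (HT + SEA against HT), which shares the HT libraries with the comparison above, 0 of 8 members were called in the PVN, where 0.2% of all miRNAs were, and none had an unadjusted p under 0.05, where 8.3% did, by edgeR or by DESeq2. The log2 fold changes ran from -0.09 for let-7b-5p to 0.05 for let-7f-5p, and no member separated the groups, where 10.3% of all miRNAs did. The value for let-7d-5p was 0.04 (95% interval -0.19 to 0.27). Its 3 HT + SEA libraries held 1014, 976.8 and 1080 CPM, overlapping the HT libraries. The passenger arm let-7f-2-3p, named above for HT + EA, held 6.04 to 7.24 CPM in the shared HT libraries, 3.10 to 5.11 CPM in HT + EA and 3.37 to 3.89 CPM in HT + SEA, all within the 2.91 to 8.15 CPM of NC. Its log2 fold change with sham treatment was -0.85 (adjusted p = 0.193 by edgeR). As both comparisons rest on the same HT libraries, their like sign is no separate evidence.

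Set against the sham treatment (HT + EA against HT + SEA), no member was called in the PVN by edgeR or by DESeq2, where edgeR called 2.72% of all miRNAs. At an unadjusted p under 0.05, both tools gave 1 of 8 members, which was let-7d-5p in edgeR's fit, beside 7.14% of all miRNAs. The count was 0 in a fit of all 4 groups of the nucleus and in 4 of 6 fits with a library left out. Its log2 fold change was 0.19 (SE 0.090, adjusted p = 0.554 by edgeR), between 0.13 and 0.27 with each library left out in turn, and the groups overlapped at 1075 and 1080 CPM, though not on TMM-scaled CPM, where these libraries stood at 1050 and 1040. This comparison shares the HT + EA libraries with the one against HT, so the values for let-7d-5p are not separate measurements. Of the 26 markers, 8 separated HT + EA from HT + SEA, in both directions. In HT + EA, miR-124-3p, miR-144-3p and miR-219a-5p were lower. miR-1-3p, miR-133a-3p, miR-145-5p, miR-204-5p and miR-122-5p were higher, and the part of these markers was not tested. On unscaled CPM no member separated these groups, where 11.3% of all miRNAs did. The remaining members lay between -0.08 and 0.05. Its passenger arm let-7d-3p had 106.6 to 126.3 CPM in HT + EA and 84.9 to 105.4 CPM in HT + SEA without overlap (0.27, adjusted p = 0.256 by edgeR).

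**Figure D5:**
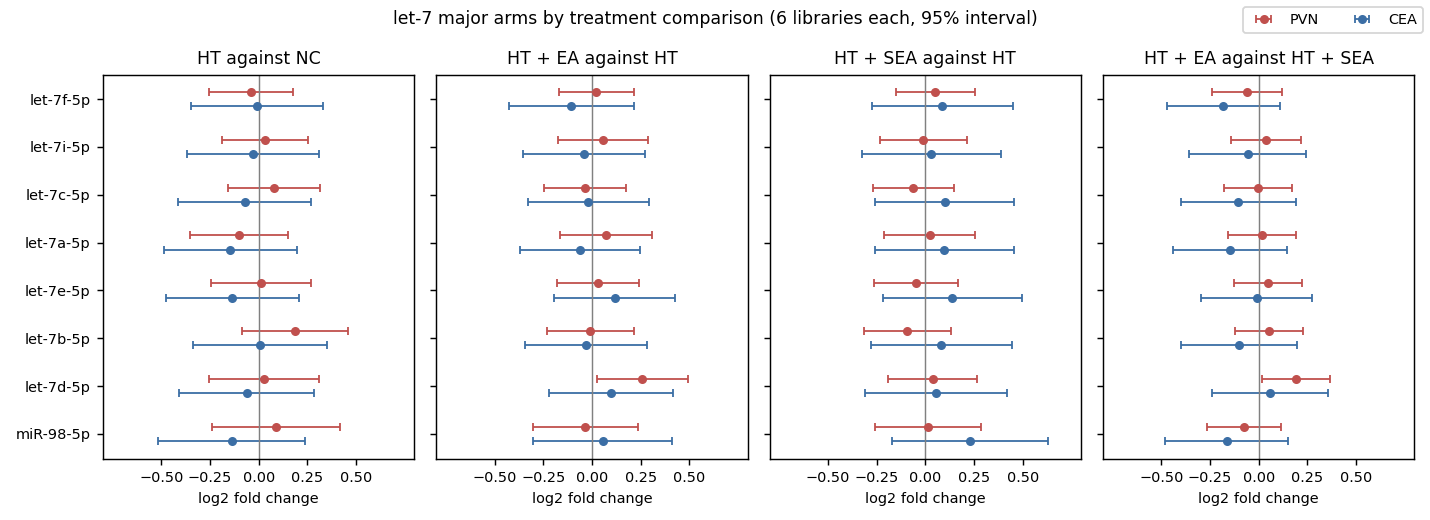
log2 fold change (x axis) of each major arm in the 4 treatment comparisons, red for the PVN and blue for the CEA, with 95% intervals from fits of 6 libraries each. All intervals include 0 except those of let-7d-5p in the PVN for HT + EA against HT (0.02 to 0.49) and against HT + SEA (0.01 to 0.37), neither of which passed adjustment over all miRNAs.

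In the CEA, no member was called in any of the 4 comparisons and none had an unadjusted p under 0.05, by edgeR or by DESeq2. For HT against NC, 0.201% of all miRNAs were called and 3.82% had an unadjusted p under 0.05, and members lay between -0.15 for let-7a-5p and 0.01 for let-7b-5p. For HT + EA against HT these shares were 0.0996% and 5.28%, with members between -0.11 for let-7f-5p and 0.12 for let-7e-5p. For HT + SEA against HT they were 0.4% and 4.7%, with members between 0.03 for let-7i-5p and 0.23 for miR-98-5p. For HT + EA against HT + SEA they were 0% and 2.24%, with members between -0.18 for let-7f-5p and 0.06 for let-7d-5p. Signs in the CEA comparisons with HT depended on the scaling, CEA HT replicate 1 having the lowest factor. On unscaled mean CPM all 8 members were lower in HT than in NC, from -0.22 to -0.07 on the log2 scale with let-7b-5p at -0.07, and all 8 were higher in HT + EA than in HT, from 0.05 for let-7f-5p to 0.26 for let-7e-5p, where 5 of the 8 fitted values were negative. For HT + SEA against HT all 8 were positive either way. For HT + EA against HT + SEA, let-7e-5p turned from -0.01 to 0.02. The 95% intervals of members reached from -0.52 to 0.63 over these comparisons, and they leave room for differences of that size.

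Only let-7e-5p and let-7d-5p separated groups in the CEA. let-7e-5p had 2284, 2338 and 2389 CPM in NC, 1772, 2241 and 2086 in HT, 2398, 2430 and 2451 in HT + EA, and 2395, 2289 and 2497 in HT + SEA. All 3 HT libraries were thus below every library of the other treatments. Among the 26 markers, miR-223-3p had the same order, with 0.886 to 0.912 CPM in HT and at least 1.24 CPM in every other CEA library. The muscle and mural sum was 11900 to 12190 CPM in HT and 13360 to 13490 CPM in NC, overlapping the other treatments, and the part of these was not tested. The log2 fold change was -0.13 (SE 0.175) for HT against NC, 0.12 (SE 0.154) for HT + EA against HT and 0.14 (SE 0.179) for HT + SEA against HT, with adjusted p of 0.988, 0.905 and 0.967 by edgeR. These comparisons share the 3 HT libraries, and without CEA HT replicate 1, the lowest, the values were -0.14, 0.11 and 0.14. With single libraries left out the value for HT against NC ran from -0.14 to -0.06, the latter without CEA HT replicate 3, and it was also -0.06 without CEA NC replicate 3. With library totals in place of TMM the values were -0.20, 0.26 and 0.24, and none of these was called. let-7d-5p had 1089, 1156 and 1272 CPM in HT and 1310, 1339 and 1519 in HT + EA, for a log2 fold change of 0.10 (SE 0.158, adjusted p = 0.941 by edgeR). The value was 0.01 without CEA HT replicate 2, 0.04 without CEA HT + EA replicate 3 and 0.25 with library totals. On TMM-scaled CPM these groups overlapped, since CEA HT replicate 1 then stood at 1324 and the lowest HT + EA library at 1278, while let-7e-5p still separated HT from each of the other treatments. Groups did not overlap for 1 member in HT against NC, where 5.62% of all miRNAs did not, 2 in HT + EA against HT (9.36%), 1 in HT + SEA against HT (6.41%) and 0 in HT + EA against HT + SEA (4.78%).

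Whether the treatments acted differently on members in the 2 nuclei was tested as an interaction over 12 libraries. No member was called in any of the 4 interactions, and none had an unadjusted p under 0.05, by edgeR or by DESeq2, where 4.98% of all miRNAs did for HT against NC, 1.9% for HT + EA against HT, 2.66% for HT + SEA against HT and 2.27% for HT + EA against HT + SEA. For let-7d-5p the log2 fold change of HT + EA against HT in the PVN less that in the CEA was 0.10, with a 95% interval from -0.30 to 0.50. The passenger arms and the cluster partners had no called miRNA in any treatment comparison of either nucleus by edgeR. At an unadjusted p under 0.05, 1 of 10 passenger arms and 1 of 11 partners passed in the PVN for HT against NC (10.9% of all miRNAs), 3 and 2 for HT + EA against HT (11.4%), 1 and 0 for HT + SEA against HT (8.3%), and 1 and 2 for HT + EA against HT + SEA (7.14%), and none in the CEA.

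Over all 24 libraries, Pearson's r between members ran from -0.64 for let-7b-5p and let-7e-5p to 0.88 for let-7b-5p and let-7d-5p, and 10 of 28 pairs were negative. Within a nucleus, Pearson's r of log2 TMM-scaled CPM ran from -0.27 to 0.83 with a median of 0.36 over the 12 PVN libraries and from 0.04 to 0.94 with a median of 0.61 over the 12 CEA libraries. The pair with the highest r in the CEA was let-7a-5p and let-7c-5p, and the one with the highest r in the PVN was let-7c-5p and let-7i-5p. These values describe libraries that share totals, depth and treatments, and the difference between the nuclei was not tested.

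Among 348 known miRNAs outside the members with at least 10 CPM on average, those whose pattern over the 24 libraries was most like that of a member are given here by Pearson's r of log2 TMM-scaled CPM, as a description over libraries that share depth and nucleus. For let-7b-5p they were miR-26a-5p (r = 0.95) and miR-181b-5p (0.94). For let-7a-5p they were miR-25-3p (0.90) and miR-3074 (0.90), for let-7d-5p miR-30a-3p (0.91) and miR-92a-3p (0.91), and for let-7c-5p miR-26b-5p (0.87) and miR-325-5p (0.83). For let-7e-5p they were miR-135a-3p (0.85) and miR-185-5p (0.83), for let-7f-5p miR-423-5p (0.74) and miR-195-3p (0.69), and for miR-98-5p miR-374-3p (0.92) and miR-499-5p (0.86). let-7i-5p was most like let-7g-5p (0.82), followed by miR-423-3p (0.74). Within the PVN libraries alone these 16 values ran from -0.07 for let-7f-5p with miR-195-3p to 0.89 for let-7i-5p with let-7g-5p. They were below 0.3 as well for let-7f-5p with miR-423-5p (0.27), let-7c-5p with miR-26b-5p (0.27) and let-7e-5p with miR-185-5p (0.15). Within the CEA libraries they ran from 0.51 for let-7e-5p with miR-135a-3p to 0.94 for let-7c-5p with miR-26b-5p.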

How the data were processed

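The values are the raw read counts of each miRNA that the authors deposited, made from small RNA reads (NEBNext kit) after removal of adapter-bearing and poor reads. Per the labels, HISAT2 and featureCounts were among the tools, and the build named is human although the samples are rat. The study's methods name HISAT2 with a rat genome and featureCounts for its clean reads, and give no separate counting step for miRNAs. A further 24 columns hold scaled values (their names end in tpm) and were not used.

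Counts were scaled by TMM and fitted with edgeR 4.0.16 (glmQLFit, glmQLFTest, limma 3.58.1, R 4.3.3), keeping miRNAs counted at least once in the libraries of a fit. CPM in the text are per library total, without TMM unless stated. Each SE is the ratio of the log2 fold change to the root of its F. Alternatives were DESeq2 1.42.0, which the study used with unadjusted p, and other scalings, filters and spread estimates. The scripts were tested on simulated data. Tables and figures used Python 3.11.15, pandas 2.3.3 and matplotlib 3.10.9.

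The members and lists were chosen with earlier results of these data known. Named are all members, the passenger arms and cluster partners that passed the test, up to 4 more of each by level, and the 2 miRNAs most like each member. Passenger arms under the unadjusted threshold, let-7d-3p in the treatments and other partners were named after their values were seen.

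All groups use the same replicate numbers. Deviations from group means over 366 miRNAs correlated above 0.1 in all 3 pairs of same-numbered libraries for HT + EA against HT in the PVN and HT against NC in the CEA, and between the nuclei in 3 of 4 treatments, but not elsewhere.

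A floor of 3 counts equals 0.201 to 0.456 CPM, which covers counting error only. Every member was far above it.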

Additional observations from a re-analysis of the deposited data

How the results depend on the processing

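Between the nuclei, 5 to 7 of 8 members were called under the other tools, scalings, filters and blocks (6 in the main analysis) and 5 to 7 with each library left out in turn. Within single treatments, where 6 libraries entered in place of 24, 3 members were called in NC, 1 in HT, 2 in HT + EA and 3 in HT + SEA. Calls and directions of let-7a-5p, let-7b-5p, let-7d-5p and miR-98-5p stayed under every alternative over 23 or 24 libraries. Those of let-7e-5p and let-7f-5p that were lost are given with their values above, and let-7c-5p passed under 5 of the 9 alternatives run and, when single libraries were dropped, in 19 of 24 fits. let-7i-5p changed sign, to -0.0103 with DESeq2 and with RLE size factors, -0.0124 over miRNAs with at least 10 counts, -0.0227 with identical rows counted once, -0.0359 in NC alone and -0.0261 in HT + SEA alone, and from -0.0715 to 0.0388 with a library left out. The cause was not tested. No member was called in a treatment comparison or interaction under any alternative run, left-out libraries included. With the replicate block, 5 members were called between the nuclei (6 with the block within treatment), since let-7f-5p lost its call, and the block changed no other member's call. For HT + EA against HT in the PVN it raised the called miRNAs from 10 to 30 and for HT against NC in the CEA from 2 to 6, with 0 members in each. The 8 members' share was 6.34% of known miRNAs, 6.37% with identical rows counted once and 6.35% with TMM-scaled totals. No miR-3596 row equalled a member in all 24 libraries, so these rows stayed in each of these totals. With 3 libraries a group, standard errors of members were between 0.089 and 0.200 in the treatment comparisons, which sets the size of difference that could be called. The spread estimate borrowed heavily from other miRNAs in some fits, where HT against NC in the PVN had 478 prior and 4 residual degrees of freedom. The robust estimate for the interactions, the overlap on TMM-scaled CPM, the signs on unscaled CPM and the share of ratios among other miRNAs were added after seeing the data.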
